A study of Mus musculus with 12 samples.

Results

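Matricellular proteins are secreted proteins that sit in the matrix around cells and signal through integrins and other receptors rather than bearing load, and provisional matrix is the temporary scaffold, rich in fibronectin, that is laid down in a wound before collagen matures. In the heart both are made mainly by fibroblasts and, after injury, by several other cell types, and they are much more abundant in the newborn and the wounded ventricle than in the quiet adult one. The 10 genes described here were taken as a list of symbols. They are the matricellular genes Postn, Tnc, Thbs1, Thbs2, Thbs4, Sparc and Ccn4, and the scaffold genes Fn1, Fbn1 and Ltbp2. The rule uses no measured value, but the list was chosen with earlier results of these data known. Its counts beside those of all genes are therefore descriptions. All 10 were found by Ensembl identifier among the 52336 genes of the deposited table, and all 10 passed the filter on low values that left 14996 genes for testing.

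The table held RNA sequencing of 12 libraries, 3 in each of 4 groups, from wild type newborn mice. Pups had been injected on postnatal days 0 and 1 with saline or with a high dose of the antioxidant N-acetylcysteine (NAC, which supplies cysteine for glutathione), the latter in a buffer of 140 mM NaCl and 25 mM HEPES. On day 2 they had a sham procedure or myocardial infarction (MI) by occluding the left anterior descending artery, and on day 3 cardiomyocytes were selected with an isolation kit from pooled, digested ventricles. The series' design names whole ventricles where the sample labels name the left ventricle, and how many hearts were pooled is not stated. A group is named by its injection and its surgery (saline sham, for example), and the number after the name is the replicate. The labels do not say that replicates came from separate animals, so a p-value reflects only the spread among the libraries sequenced. Unless another unit is named, values are normalized read counts, which are gene read counts divided by a size factor of the library, with mean ± SD over n = 3 libraries.

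Depth ran from 14353842 to 25118341 reads per library, and a member had between 119 and 61260 reads in a library, so counting error was small for all 10. Cardiomyocyte markers were abundant, with Tnnt2 (cardiac troponin T) at 52858 ± 20267 in saline sham and 79489 ± 14715 in saline MI. Transcripts of other cells were present as well, as with the fibroblast receptor Pdgfra at 1344 ± 753 in saline sham and the endothelial gene Pecam1 at 13396 ± 2761. Which cells carried the members' transcripts was not measured, and in bulk samples a change in the number of cells of a type and a change in the RNA per cell cannot be told apart. Marker scores below are the mean log2(value + 1) of a marker list in a library. Of 12 macrophage and monocyte markers, NAC sham 2 had a score of 9.42, where the other 5 shams ran from 5.19 to 6.20. NAC MI 2 had 5.75, where the other 5 MI libraries ran from 8.78 to 9.51, and none of these markers was at 0 in any library. Those libraries and saline sham 3 stood apart from their groups, and results are given with and without the 3. Saline sham 3 had a low quality weight of 0.268 (limma's estimate of a library's reliability), which was 0.250 for NAC sham 2 and 0.451 for NAC MI 2. The 3 were picked from these same data, and NAC MI 3, with a weight of 0.486, was kept. A call gained by leaving them out is therefore a description and not independent evidence. The weights come from these same data too, so a call gained with them is likewise a description. Sample titles carried prefixes whose meaning is not stated, and since each prefix occurred with 1 kind of surgery only, prefix cannot be told apart from surgery.

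The members covered a wide range of abundance. Per kilobase of merged exons, Sparc stood highest at a mean of 11953 over the 12 libraries (SD 2352), and it was above Fn1, the next member, in 12 of 12 libraries. Sparc encodes osteonectin, a collagen-binding glycoprotein of many secretory cells. Fn1 (fibronectin) and Postn (periostin, an integrin ligand of fibroblasts) followed at 2791 (SD 838) and 2544 (SD 684) per kilobase, and Fn1 was the higher of this pair in only 7 of 12 libraries, so their order was not settled. Fbn1 (fibrillin-1, the core of microfibrils), at 940.0 per kilobase, was below Postn in 12 of 12 libraries. Thbs1 stood at 746, Thbs2 at 382 and Tnc (tenascin C) at 295 per kilobase, with neighbours in that order changing places in 2 or 3 of 12 libraries. Ccn4, Thbs4 and Ltbp2 formed the low end at 94.0, 74.7 and 49.5 per kilobase, and Tnc was above Ccn4 in 12 of 12 libraries.

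MI was compared with sham surgery to ask how these genes stood a day after coronary occlusion. With all libraries weighted equally, Tnc was the only member that passed in limma, and only in the comparison averaged over saline and NAC, where it rose 2.03-fold (log2 fold change 1.02, SE 0.24, limma adjusted p = 0.0434). Tnc encodes a large anti-adhesive glycoprotein that is scarce in resting adult myocardium and made at wound edges (ENSMUSG00000028364, chromosome 4, 63959785 to 64047015 on GRCm38). In saline sham the Tnc values were 1492, 2008 and 844, and in saline MI they were 3617, 2682 and 3262. In NAC sham they were 1001, 2338 and 1644, and in NAC MI 3703, 2784 and 2118. The saline groups did not overlap, and with NAC the highest sham library, NAC sham 2, was above the lowest MI library, NAC MI 3. Within a treatment this fit did not call Tnc, with a log2 fold change of 1.21 (SE 0.34, limma adjusted p = 0.15) after saline and 0.83 (SE 0.34, limma adjusted p = 0.462) after NAC. With library quality weights limma did call Tnc after saline (1.16, adjusted p = 0.00836) and after NAC (1.31, adjusted p = 0.00868). Those weights, taken from the same data, were low for NAC sham 2, the highest NAC sham library for Tnc. With them 10.1% of all genes tested were called higher after saline and 4.08% after NAC. DESeq2 called Tnc after saline (adjusted p = 0.0469) but not after NAC (adjusted p = 0.348). Averaged over treatments, edgeR on the recovered reads gave an adjusted p = 0.0501 and DESeq2 0.00435 for Tnc. The call ended without saline sham 1, NAC sham 1 or 3, any 1 of saline MI 1, 2 and 3, NAC MI 1 or NAC MI 2 (limma adjusted p up to 0.132), and it held without the 3 libraries that stood apart (log2 0.998, limma adjusted p = 0.00738).

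**Figure D1:**
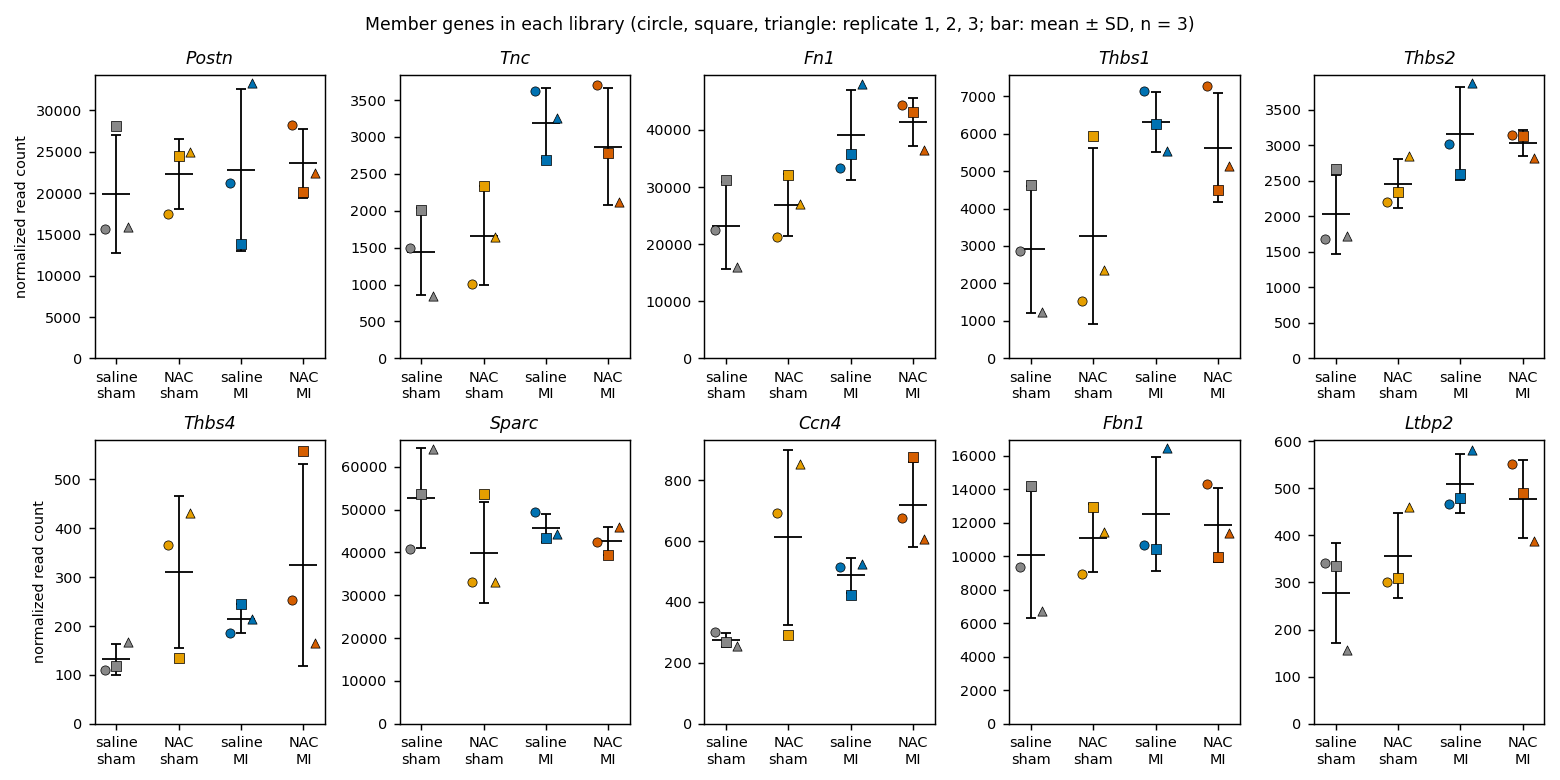
Normalized read counts of the 10 members in each of the 12 libraries, 1 panel per gene, with the 4 groups on the x axis. Points are libraries (circle, square and triangle for replicates 1, 2 and 3) and bars are mean ± SD of 3 libraries. For Fn1 all 6 MI libraries stand above all 6 sham libraries, while NAC sham 2 (orange square) stands with the MI libraries for Thbs1.

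Fn1 encodes fibronectin, the main adhesive protein of provisional matrix and a ligand of integrin alpha 5 beta 1 (ENSMUSG00000026193, chromosome 1, 71585520 to 71653200). Its values were 22499, 31256 and 15964 in saline sham, 21244, 32084 and 27015 in NAC sham, 33405, 35804 and 48075 in saline MI and 44299, 43153 and 36519 in NAC MI. It was the only member with all 6 MI libraries above all 6 sham libraries, a pattern found in 1.45% of the genes tested. The averaged log2 fold change was 0.71 (SE 0.21), which limma did not call (adjusted p = 0.0962). The adjusted p for Fn1 was 0.0782 in edgeR and 0.00683 in DESeq2, and in limma 0.0383 without the 3 libraries that stood apart.

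Thrombospondins are calcium-binding glycoproteins, and Thbs1 and Thbs2 form the trimeric subgroup that binds CD47 and CD36 and restrains vessel growth. Thbs1 (ENSMUSG00000040152, chromosome 2, 118111876 to 118127133) had the widest spread of the members within the sham groups relative to its mean, with 2863, 4637 and 1245 in saline sham and 1524, 5932 and 2350.0 in NAC sham. Its MI values were 7139.5, 6255 and 5529 with saline and 7259, 4482 and 5133 with NAC. The saline groups did not overlap, and NAC sham 2 was above NAC MI 2 and 3. The averaged log2 fold change of Thbs1 was 1.15 (SE 0.34, limma adjusted p = 0.0932), and it passed without NAC sham 2 (log2 1.42, limma adjusted p = 0.0115) and without the 3 libraries that stood apart (log2 1.24, limma adjusted p = 0.00121). NAC sham 2 had the highest Thbs1 of the sham libraries, so leaving it out had to raise the difference. Over all 12 ways of leaving out 1 library, the adjusted p of Thbs1 ran from 0.0115 to 0.218 in limma. Thbs2 (ENSMUSG00000023885, chromosome 17, 14665500 to 14694235) went from 2029 ± 558 to 3165 ± 654 with saline and from 2463 ± 345 to 3032 ± 182 with NAC. Its averaged log2 fold change was 0.48 (SE 0.15, limma adjusted p = 0.107), and both pairs of groups overlapped by 1 library, saline sham 2 and NAC sham 3. Without saline sham 2 it passed (log2 0.59, limma adjusted p = 0.0486), and with 1 library left out in turn its adjusted p in limma reached 0.225. Saline sham 2 was the highest saline sham library for Thbs2, so leaving it out had to raise the difference.

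Ltbp2 encodes a latent TGF-beta binding protein family member that associates with microfibrils and does not itself bind latent TGF-beta (ENSMUSG00000002020, chromosome 12, 84783212 to 84876532). It stood at 341, 335 and 156 in saline sham and at 468, 479.9 and 582 in saline MI, groups that did not overlap. With NAC it stood at 301, 309 and 461 after sham and 553, 490.1 and 388 after MI, where NAC sham 3 was above NAC MI 3. The averaged log2 fold change was 0.69 (SE 0.21, limma adjusted p = 0.0951, DESeq2 adjusted p = 0.0417).

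Sequences just before the transcription start are shown for Tnc, the member that passed with MI, for Thbs2 and Ltbp2, whose log2 values followed it over the 12 libraries (Pearson r of 0.80 and 0.84), and for Thbs4, which did not (0.07). They are 250 bases long, come from RefSeq on GRCm38.p6, read 5′ to 3′ on the gene's strand and end at the base before the annotated start. Of the 10 members, 7 had an entry (Postn, Tnc, Thbs2, Thbs4, Sparc, Fbn1 and Ltbp2). For Tnc, which had 2 annotated starts, the one at the end of the gene model is shown. Capitals mark matches on either strand to 4 motifs, and matches to different motifs do not overlap in these sequences. The AP-1 letters searched were TGANTCA. The letters for TEAD factors were GGAATG. For SMAD factors the search used CAGACA. The TATA box was searched as TATAAA.
Tnc, chr4:64047016-64047265, minus strand: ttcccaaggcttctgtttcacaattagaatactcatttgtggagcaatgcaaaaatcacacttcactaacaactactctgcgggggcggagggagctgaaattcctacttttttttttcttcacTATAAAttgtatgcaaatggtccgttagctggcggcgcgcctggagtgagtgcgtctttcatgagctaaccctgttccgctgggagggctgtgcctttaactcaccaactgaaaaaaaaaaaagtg
Thbs2, chr17:14694263-14694512, minus strand: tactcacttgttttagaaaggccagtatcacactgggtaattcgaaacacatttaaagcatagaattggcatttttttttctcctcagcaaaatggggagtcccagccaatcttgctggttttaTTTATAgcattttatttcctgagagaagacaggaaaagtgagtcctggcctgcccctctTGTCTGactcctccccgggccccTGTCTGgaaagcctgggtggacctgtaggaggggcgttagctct
Ltbp2, chr12:84876492-84876741, minus strand: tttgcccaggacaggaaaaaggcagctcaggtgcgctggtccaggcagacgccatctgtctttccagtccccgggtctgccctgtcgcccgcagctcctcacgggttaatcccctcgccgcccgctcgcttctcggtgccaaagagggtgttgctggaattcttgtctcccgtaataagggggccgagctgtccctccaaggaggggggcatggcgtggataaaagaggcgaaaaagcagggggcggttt
Thbs4, chr13:92794819-92795068, minus strand: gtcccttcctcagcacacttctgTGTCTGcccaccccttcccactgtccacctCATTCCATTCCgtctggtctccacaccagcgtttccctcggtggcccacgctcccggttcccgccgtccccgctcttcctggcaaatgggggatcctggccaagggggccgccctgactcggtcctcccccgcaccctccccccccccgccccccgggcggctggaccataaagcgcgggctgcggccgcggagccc
The Tnc sequence held 1 match to the TATA box letters, 126 bases before the start, and Thbs2 held 1 to these and 2 to the SMAD letters. The sequence of the other Tnc start, not shown, also held 1 match to the SMAD letters, 71 bases before that start. Thbs4 held 2 matches to the TEAD letters, which share 1 base, and 1 to the SMAD letters, and Ltbp2 held 0 matches to any of the 4. Over 32851 such sequences of the same length, 6.75% held the AP-1 letters, 12.6% those for TEAD, 17.1% those for SMAD and 12.4% those of the TATA box. The 4 sequences had a GC content of 44.8% (Tnc), 46.8% (Thbs2), 61.6% (Ltbp2) and 70.8% (Thbs4). A match is a run of letters, not a shown binding site.

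Postn, Fbn1 and Sparc had averaged differences no larger than about 1 SE. Postn, often used as a marker of activated fibroblasts after infarction (ENSMUSG00000027750, chromosome 3, 54361109 to 54391037), had 15639, 28108 and 15865 in saline sham against 21247, 13811 and 33316 in saline MI. Its averaged log2 fold change was 0.12 (SE 0.24, limma adjusted p = 0.813). Fbn1 (ENSMUSG00000027204, chromosome 2, 125300594 to 125507993) went from 10102 ± 3792 to 12513 ± 3406 with saline, and its averaged log2 fold change was 0.22 (SE 0.21, limma adjusted p = 0.584). Sparc (ENSMUSG00000018593, chromosome 11, 55394500 to 55423183) had the saline sham values 40754, 53554 and 64095 and the saline MI values 49407, 43388 and 44405, with an averaged log2 fold change of -0.03 (SE 0.21, limma adjusted p = 0.961). Its sign turned to 0.19 without the 3 libraries that stood apart.

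Counted over the list, 0 of 10 members passed in limma for MI after saline, where 0.860% of all genes tested were called, and 6 of 10 were higher at an unadjusted p under 0.05 (6.87% of all genes). edgeR called 0 members (0.607% of all genes) and DESeq2 called 1, Tnc (3.09%). In that comparison 6 of 10 members, namely Tnc, Fn1, Thbs1, Thbs4, Ccn4 and Ltbp2, were higher with no overlap between the groups, against 10.4% of all genes tested. The median log2 fold change was 0.75 over the members and -0.0075 over all genes tested. After NAC, 0 of 10 passed in limma (0.127% of all genes), edgeR (0.187%) and DESeq2 (1.61%), and Tnc alone was higher at an unadjusted p under 0.05 (5.11%). Fn1 alone was higher with no overlap (9.08% of all genes), and the median was 0.33 over the members and -0.0018 over all genes. For the averaged comparison 1 of 10 passed in limma (2.74% of all genes), 0 in edgeR (2.80%) and 3 in DESeq2 (8.12%), which were Tnc, Fn1 and Ltbp2. There 6 of 10 were higher at an unadjusted p under 0.05 (10.4% of all genes), 9 of 10 had a value above 0 (49.7%), and the median was 0.53 against -0.0030. Without the 3 libraries that stood apart, more genes of all kinds were called. Limma then called 2 members higher after saline (Thbs4 and Ccn4, with 6.74% of all genes called higher), 1 after NAC (Thbs1, with 3.06%) and 3 on average (Tnc, Fn1 and Thbs1, with 8.32%). With quality weights on all 12 libraries it called 4 higher after saline (Tnc, Thbs1, Thbs2 and Ccn4, with 10.1% of all genes), 3 after NAC (Tnc, Fn1 and Thbs1, with 4.08%) and 5 on average (Tnc, Fn1, Thbs1, Thbs2 and Ltbp2, with 14.4%).

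**Figure D2:**
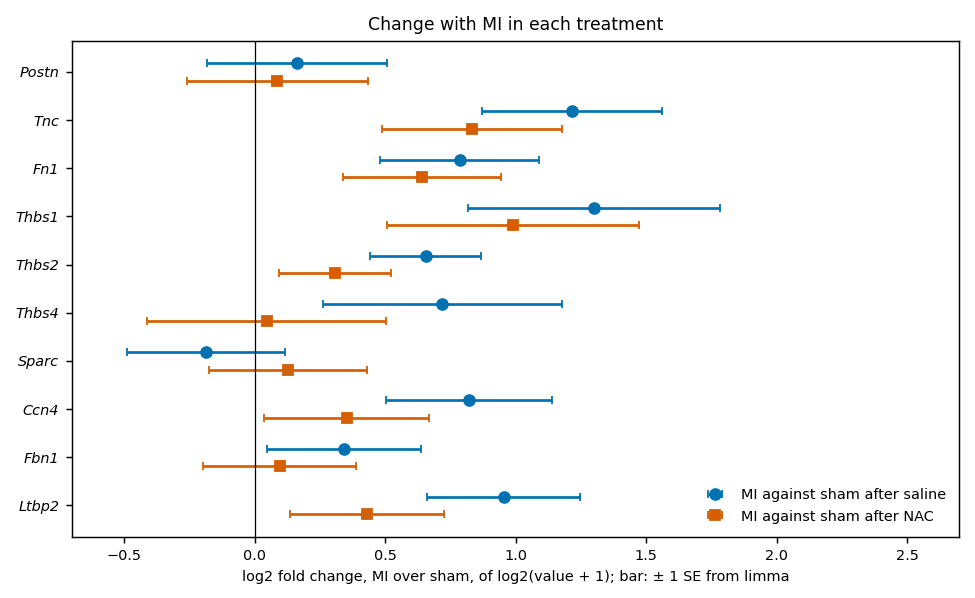
Log2 fold change of MI over sham for each member, with saline (blue circles) and with NAC (orange squares), on the log2(value + 1) scale, with bars of ± 1 SE from limma. With saline 9 of 10 members lie above 0 (49.1% of all genes tested), led by Thbs1 at 1.30 and Tnc at 1.21, and with NAC 10 of 10 do (49.8%), led by Thbs1 at 0.99.

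Markers of other cell types also differed with surgery. Of 12 fibroblast markers 11 were higher after MI with saline (median log2 0.55, 0 called) and 11 with NAC (median 0.40, 0 called), and the fibroblast score ranged from 11.9 to 12.5 over the sham libraries and from 12.42 to 12.99 over the MI libraries. The summed fibroblast marker level ranged from 125469 to 176144 in saline sham, 120421 to 165723 in NAC sham, 196608 to 267190 in saline MI and 176751 to 243626 in NAC MI, and no fibroblast marker was at 0 in any library. The list includes collagen chains. From saline sham to saline MI mean Col1a1 went from 22422 to 50396 and Col3a1 from 41085 to 77500, while Tcf21 went from 604 to 943. Neither the sum nor the fibroblast score is a count of fibroblasts. Measured against that score within each library, Tnc was higher by 0.56 and Thbs1 by 0.68 on the log2 scale in the MI libraries than in the sham libraries, Fn1 by 0.25 and Ltbp2 by 0.23. Thbs2 moved by 0.02 relative to the score, so its difference was the size of that of the fibroblast markers, while Postn (-0.34), Fbn1 (-0.25) and Sparc (-0.49) were lower relative to it. These differences are descriptions without a test.

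Macrophage and monocyte markers were higher in 12 of 12 after MI with saline (median log2 3.31, 2 called) and in 10 of 12 with NAC (median 0.46, 0 called). The summed macrophage marker level ranged from 721 to 1297 in saline sham, 1146 to 20614 in NAC sham, 8794 to 12932 in saline MI and 1041 to 11579 in NAC MI. NAC sham 2, with the highest sum, had the highest Tnc and Thbs1 of the sham libraries, while NAC MI 2, with a sum as low as in sham, had 2784 of Tnc and 43153 of Fn1, both above every sham library. The Thbs1 value of NAC MI 2, 4482, was below those of saline sham 2 and NAC sham 2. NAC MI 2 also differed in its epicardial markers, with a summed level of 18958. In the other MI libraries that level ran from 4572 to 5447. Of 8 platelet markers, which matter for Thbs1 because platelet granules hold its protein, 7 were tested. After MI 6 were higher with saline (median 0.83, 1 called), but 4 with NAC (median 0.01, 0 called) and 4 on average (median 0.20, 1 called). Their summed levels were 331 to 559 in saline sham and 1627 to 2414 in saline MI. With NAC they were 240 to 859 after sham and 291 to 1858 after MI, and Gp1bb was at 0 in 11 of 12 libraries. The 859 was in NAC sham 2 and the 291 in NAC MI 2, the libraries whose macrophage sums also stood apart. On average over both treatments 9 of 9 neutrophil markers tested were higher after MI (median 2.87, 6 called) and 7 of 8 epicardial markers (median 1.60, 5 called), while 8 of 8 endothelial markers were lower (median -0.52, 0 called) and 5 of 7 markers of activated fibroblasts and mural cells were lower (median -0.48, 1 called higher and 1 lower). Of 5 endocardial and valve markers 4 were lower (median -0.28, 0 called). How far these cell types account for the members' differences was not tested.

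**Figure D3:**
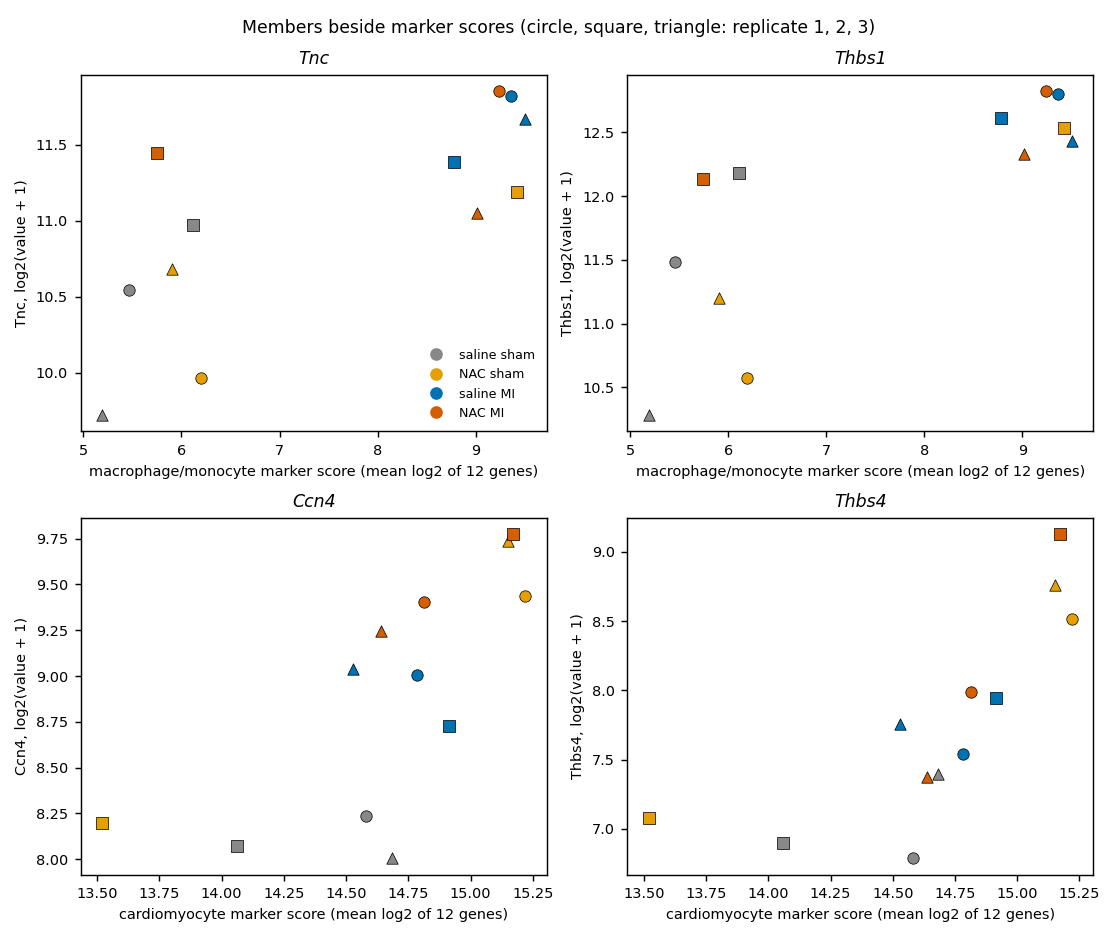
Each point is a library (circle, square and triangle for replicates 1, 2 and 3), with Tnc and Thbs1 against the macrophage and monocyte marker score (top) and Ccn4 and Thbs4 against the cardiomyocyte marker score (bottom), all on log2 scales. NAC MI 2 (red-orange square) has a macrophage score of 5.75 with a Tnc value within the range of the other MI libraries, and the 3 libraries with the highest cardiomyocyte scores have the 3 highest Ccn4 and Thbs4 values.

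NAC was compared with saline to ask what the antioxidant changed in uninjured and injured hearts. The HEPES buffer is named for the NAC groups only, so an effect of NAC cannot be told apart from one of its buffer. With equal weights no member passed in either setting, whether in limma, in edgeR or in DESeq2, where all genes tested were called at 0%, 0% and 0.353% after sham and at 0%, 0% and 0.0734% after MI. After sham surgery 2 of 10 members had an unadjusted p under 0.05 in limma (5.89% of all genes tested), namely Ccn4 and Thbs4, and 0 of 10 were higher with NAC without overlap (5.35%). The sign was positive for 9 of 10 (48.2% of all genes). Limma called Ccn4 and Thbs4 higher after sham with quality weights (2.06% of all genes called higher) and without the 3 libraries that stood apart (1.83%). The median log2 difference, NAC over saline, was 0.22 over the members and -0.02 over all genes tested. After MI 0 of 10 had an unadjusted p under 0.05 (9.22% of all genes), 4 of 10 were above 0 (48.1%), and the median was -0.05 against -0.02.

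Ccn4 encodes WISP1, a Wnt-inducible matricellular protein of the CCN family (ENSMUSG00000005124, chromosome 15, 66891320 to 66923201). Its values were 300.1, 268 and 256 in saline sham and 692, 293 and 852 in NAC sham. After MI they were 514, 423 and 524 with saline and 677, 875 and 607 with NAC. In sham hearts NAC 1 and 3 were far above the saline libraries and NAC sham 2 was level with them. After MI all NAC libraries were above all saline libraries, as for 8.84% of the genes tested, and Ccn4 was the only member of which this held. The log2 difference was 1.02 after sham (SE 0.32, limma adjusted p = 0.77) and 0.55 after MI (SE 0.32, limma adjusted p = 0.576). Without NAC sham 2 the sham difference was 1.48 (limma adjusted p = 0.0292), and without the 3 libraries that stood apart 1.43 (limma adjusted p = 0.00343), so this library decided whether Ccn4 passed. NAC sham 2 had the lowest Ccn4 of the NAC sham libraries, so leaving it out had to raise the difference. NAC sham 1 and 3 carry no title prefix, whereas saline sham 1 and 2 carry R207 and saline sham 3 carries R219, so without NAC sham 2 the effect of NAC after sham cannot be told apart from the prefix. Between the libraries with the prefix R207 (NAC sham 2 against saline sham 1 and 2) the difference in Ccn4 was 0.04, while the prefixes R230 and R235 gave 0.38 and 0.55 for NAC over saline after MI.

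Thbs4 encodes a pentameric thrombospondin of muscle, tendon and stressed heart that lacks the properdin-like repeats of Thbs1 and Thbs2 (ENSMUSG00000021702, chromosome 13, 92751590 to 92794818). Its values were 109, 118 and 168 in saline sham, 365, 134 and 432 in NAC sham, 185, 245 and 215 in saline MI and 252, 558 and 165 in NAC MI. NAC sham 1 and 3 and NAC MI 2 were above the other 9 libraries, the highest of which had 252. The log2 difference of NAC over saline was 1.09 after sham (SE 0.46, limma adjusted p = 0.77) and 0.42 after MI (SE 0.46, limma adjusted p = 0.761). Without saline sham 3, NAC sham 2 and NAC MI 2, which keeps NAC sham 1 and 3, these became 1.80 (limma adjusted p = 0.00431) and -0.07 (limma adjusted p = 0.918). With MI after NAC, Thbs4 stood at 0.05 in the full set and at -0.96 without those libraries. For Thbs4 saline sham 3 was the highest of its group, NAC sham 2 the lowest and NAC MI 2 the highest. Leaving them out therefore had to raise the NAC difference after sham and lower it after MI. It also had to lower the change with MI after NAC. The sham value of 1.80 sets NAC sham 1 and 3, with no prefix, against saline sham 1 and 2 of R207, so for Thbs4 too NAC and prefix cannot be told apart there. Within R207 its NAC difference was 0.24, within R230 -0.37 and within R235 0.80.

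NAC sham 1 and 3 and NAC MI 2, which led in Ccn4 and Thbs4, also had the highest cardiomyocyte marker scores. The score of 12 cardiomyocyte markers was 15.2 in each of them, 13.5 in NAC sham 2 and between 14.1 and 14.9 for the remaining 8 libraries, and the summed marker level ranged from 245895 to 671750 in NAC sham and from 367001 to 600799 in saline sham. No cardiomyocyte marker was at 0 in any library. By summed level saline MI 2, at 674981, was above NAC sham 1 and 3. Of the 12 markers 5 were higher with NAC after sham (median log2 -0.24, 0 called) and 6 after MI (median -0.06, 0 called). Endothelial markers were higher with NAC in 0 of 8 after sham (median -0.37) and 1 of 8 after MI (median -0.49). Pearson r over the 12 libraries was -0.89 for Ccn4 and -0.87 for Thbs4 with the endothelial score. With the cardiomyocyte score it was 0.72 and 0.77. Red cell markers were lower with NAC in 6 of 6 after sham (median log2 -1.40, 0 called) and in 6 of 6 after MI (median -1.22, 0 called), with summed levels of 546110 to 1396275 in saline sham and 188299 to 410415 in NAC sham. The part of any of these markers in the Ccn4 and Thbs4 differences was not tested.

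For the other 8 members no difference between NAC and saline had an unadjusted p under 0.05. Sparc had 33101, 53654 and 33119 in NAC sham and 42446, 39471 and 45925 in NAC MI, so NAC sham 1 and 3 were below all saline sham libraries and NAC sham 2 was not. Postn had 17445, 24443 and 24992 in NAC sham and 28261, 20188 and 22392 in NAC MI, within the range of the saline libraries. Fbn1 stood at 11112 ± 2029 in NAC sham and 11873 ± 2209 in NAC MI. After sham the log2 differences ran from -0.42 for Sparc to 0.42 for Ltbp2, and after MI from -0.19 for Thbs1 to 0.13 for Postn. The sign of several turned when libraries were left out: without the 3 that stood apart, Tnc went from 0.20 to -0.43 and Thbs1 from 0.12 to -0.94 after sham. The interaction, which asks whether the change with MI differed between NAC and saline, gave 0 of 10 members passing in limma (0% of all genes tested), edgeR (0%) and DESeq2 (0.00667%) and 0 of 10 at an unadjusted p under 0.05 (2.03%). Its values ran from -0.67 (SE 0.65) for Thbs4 to 0.31 (SE 0.43) for Sparc, with 1 of 10 above 0 (50.1% of all genes) and a median of -0.33 against 0.00092 over all genes. These signs depended on a few libraries. With quality weights, and also without the 3 libraries that stood apart, Postn, Tnc, Fn1, Thbs1 and Fbn1 turned positive. The comparisons share groups, so the interaction counts and the counts for each treatment are not separate evidence.

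Across the 12 libraries the members did not vary as a single unit, as the matrix of pairwise correlations shows. The closest pair was Tnc and Thbs1 (Pearson r of log2 values 0.95 over 12 libraries), followed by Tnc and Fn1 (0.92) and Fn1 and Thbs2 (0.89). Thbs4 and Ccn4 (0.86) and Postn and Fbn1 (0.85) formed further pairs. Sparc ran against Ccn4 (-0.77) and Thbs4 (-0.68). These values mix differences between groups with those within groups and share the libraries' cell makeup, so they are descriptions only. Of 11441 other genes with a mean of at least 50, the closest to Tnc were Sbno2 (0.96) and Adam12 (0.93), and the closest to Thbs1 were Lilrb4a (0.96) and Sbno2 (0.96). Those closest to Fn1 were Myof (0.97) and Sec16b (0.96), to Thbs2 Bicc1 (0.94) and the collagen chain Col1a2 (0.91), to Ltbp2 Col12a1 (0.94), and to Fbn1 Col6a3 (0.93). Postn was closest to Lepr (0.92), Ccn4 to Slc37a1 (0.96) and the slow myosin heavy chain Myh7 (0.95), Thbs4 to Tmem38a (0.97), a channel of the sarcoplasmic reticulum, and Sparc to Bcl10 (0.93). The genes closest to the mean of the standardized members were Sec16b (0.97), Bicc1 (0.95) and Col12a1 (0.94).

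**Figure D4:**
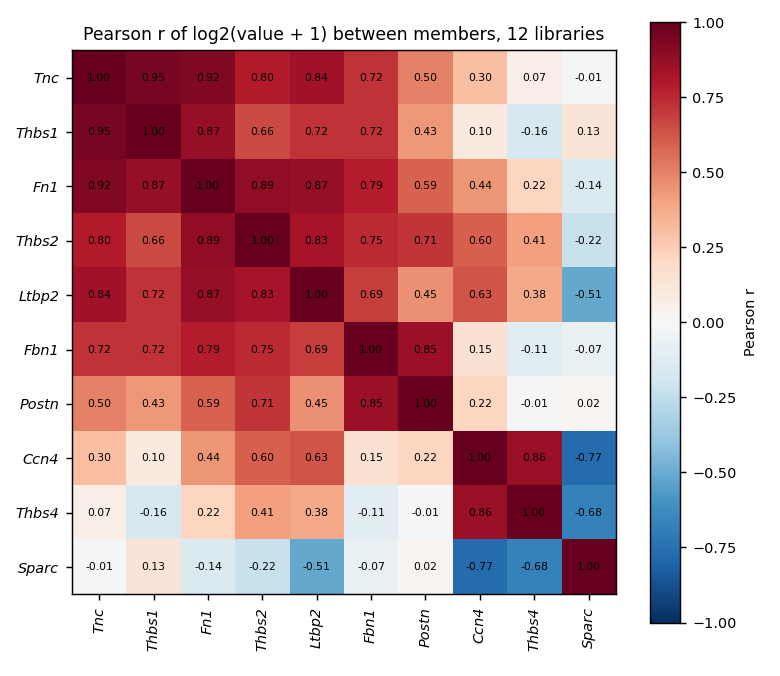
Pearson r of log2(value + 1) between each pair of members over the 12 libraries, from -1 (blue) to 1 (red). Tnc, Thbs1, Fn1, Thbs2 and Ltbp2 have r of at least 0.66 with one another, Thbs4 and Ccn4 have 0.86, and Sparc has its lowest values with that pair.

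Genes around the members in the same pathway were read from lists made by function. Of all 14996 genes tested, 7452 were higher with MI on average, and limma called 319 higher and 92 lower. Of 14 other matricellular genes tested, 11 were higher with MI on average, and 4 rose in limma (adjusted p under 0.05), with 0 called lower. They were Spp1 (osteopontin, a cytokine-like ligand of integrins, 7.59 ± 0.961 in saline sham and 4417 ± 1638 in saline MI), Ccn2 (connective tissue growth factor, averaged log2 1.28), Ccn5 (1.56) and Tgfbi (a TGF-beta induced integrin ligand, 1.01). Of 7 other provisional matrix genes tested, 1 rose, Tgm2, the transglutaminase that crosslinks fibronectin and fibrin (3217 ± 588 to 5764 ± 873 with saline, averaged 0.97), and 1 fell, Vtn, the plasma adhesive protein vitronectin (averaged -1.74). Of 15 microfibril and elastic fibre genes, the family of Fbn1 and Ltbp2, 14 were higher and 0 passed in limma, with the smallest p for Lox, the lysyl oxidase (1.11, limma adjusted p = 0.0559), and Efemp2 (0.60, limma adjusted p = 0.0614). The list's median was 0.32. An unadjusted p under 0.05 in limma, in either direction, was found for 5 of 15, against 3034 of all 14996 genes tested.

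Of 16 receptors for these proteins, 12 were higher with MI on average (49.7% of all genes tested). In limma 3 receptors rose (319 of 14996 genes tested did), with 0 lower. They were Sdc4 (syndecan 4, a co-receptor for fibronectin, 229 ± 71.2 to 551 ± 88.7 with saline, averaged log2 1.32), Cd44 (a receptor for hyaluronan and osteopontin, 0.80) and Itgb5 (an integrin chain that pairs with alpha v, 0.62). Of 12 genes of the TGF-beta axis, which induces many matricellular genes, 6 were higher with MI on average, with a list median of 0.02. In the comparisons of NAC with saline and in the interaction 0 genes of these 5 lists passed in limma, where 0% of all genes did.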

How the data were processed

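RNA was sequenced from 12 poly-A enriched libraries of isolated cardiomyocytes, 3 in each of 4 groups, grouped by title. In the deposited signal values, each library's read counts per gene had been scaled by the authors with a single size factor. Whole reads were recovered for 100% of the values (within 0.01), and recomputed median-of-ratios factors were the same in 12 of 12 libraries. STAR 2.7.10a, DESeq2 1.44.0 and mm10 are named, per the submitters' processing notes. Counter, annotation release and strand are not given in the sources used here, so reads of antisense genes cannot be told apart from members (5 members have such an overlap, with means under 6). A list of gene names gave symbols for 52027 identifiers. Gene positions and exon lengths came from GENCODE M21 on GRCm38, which matched 52079 identifiers.

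Values were transformed as log2(value + 1), genes with a mean under 10 were left out, and limma 3.58.1 in R 4.3.3 was fitted with a trended prior to 4 group means with 8 residual degrees of freedom. All p-values are two-sided, with Benjamini-Hochberg adjustment over 14996 genes and a threshold of 0.05. A fold change on this scale understates that of low genes. An exact permutation test of 3 against 3 cannot go below 0.1. On simulated counts for MI after saline (14996 genes, 200 of them changed), the fit called 14% of 2-fold and 75% of 4-fold changes, with 5 false calls. Simulated counts were drawn independently, with no library that stood apart, and the changed genes were picked at random. These rates therefore need not hold for the real libraries or for the members. Alternatives were edgeR 4.0.16 with TMM and DESeq2 1.42.0 on recovered reads, a pseudocount of 8, no filter, quality weights, a title prefix block, fewer libraries and leaving out libraries. Named genes were the members, the called genes of 5 pathway lists (or the 2 with the smallest p), and the 5 genes most like each member. Members and lists were chosen with earlier results of these data known. The called genes of the TGF-beta list are not reported here.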

Additional observations from a re-analysis of the deposited data

How the results depend on the processing

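Members kept their direction and their side of the threshold in 353 of 410 values from settings other than single libraries left out, and in 431 of 480 with 1 library left out; 32 and 38 changed sign, of which 10 and 25 came within 0.1 of 0. The causes were not tested. Library quality weights called 2915 genes for MI after saline, 806 for MI after NAC, 4187 for MI averaged, 421 for NAC after sham and 685 for NAC after MI, with 4, 3, 5, 2 and 0 members. Without saline sham 3, NAC sham 2 and NAC MI 2 together the genes were 1807, 575, 2183, 418 and 0, with 6 for the interaction, and the members 2, 1, 3, 2 and 0. DESeq2 called 464, 241, 1218, 53 and 11 genes in the same order and 1 for the interaction, with 1 member for MI after saline and 3 for MI averaged. No filter on low values and edgeR each left 0 members for MI averaged, a pseudocount of 8 gave 43 genes for MI after NAC, and fits of only the libraries compared gave 507 genes for MI after saline and 1 for MI after NAC. Signs changed with quality weights as follows. For MI after saline Sparc was 0.072, for MI after NAC Thbs4 was -0.50 and Ccn4 -0.081, and for MI averaged Sparc was 0.20. For NAC after sham Tnc was -0.18 and Thbs1 -0.54, and for NAC after MI Thbs2 was 0.034, Fbn1 0.23 and Ltbp2 0.10. For the interaction Postn was 0.10, Tnc 0.15, Fn1 0.22, Thbs1 0.48 and Fbn1 0.18. Without the 3 libraries, signs changed for MI after NAC in Thbs4 (-0.96) and Ccn4 (-0.26), and for MI averaged in Thbs4 (-0.025) and Sparc (0.19). They changed for NAC after sham in Postn (-0.0059), Tnc (-0.43), Fn1 (-0.15), Thbs1 (-0.94) and Fbn1 (-0.19), and for NAC after MI in Thbs4 (-0.066) and Fbn1 (0.060). For the interaction they changed in Postn (0.24), Tnc (0.26), Fn1 (0.21), Thbs1 (0.91) and Fbn1 (0.25). The title prefix as a block turned Postn (-0.047) and Fn1 (-0.029) for NAC after MI.

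With 1 library left out, MI after saline gave 15 to 105 genes and Postn from -0.16 to 0.48. MI after NAC gave 8 to 67 genes, with Postn from -0.080 to 0.19, Thbs4 from -0.47 to 0.44, Ccn4 from -0.11 to 0.66 and Fbn1 from -0.053 to 0.22. MI averaged gave 133 to 1563 genes (the latter without saline sham 3) and 0 to 2 members, with Postn from -0.035 to 0.28 and Sparc from -0.12 to 0.088. NAC after sham gave 0 to 80 genes and 0 to 1 members, both highest without NAC sham 2, with Tnc from -0.14 to 0.52, Fn1 from -0.0061 to 0.48, Thbs1 from -0.43 to 0.55 and Fbn1 from -0.070 to 0.47. NAC after MI gave 0 to 4 genes, with Postn from -0.19 to 0.45, Tnc from -0.38 to 0.022, Fn1 from -0.011 to 0.25 and Thbs2 from -0.18 to 0.11. Thbs4 ran there from -0.066 to 0.81, Fbn1 from -0.20 to 0.15 and Ltbp2 from -0.22 to 0.037. The interaction gave 0 to 4 genes, with Postn from -0.39 to 0.24, Fn1 from -0.39 to 0.10, Thbs1 from -0.74 to 0.24 and Fbn1 from -0.53 to 0.011. No paired analysis was possible because the replicate numbers only follow the order of deposit and tie no libraries together. The title prefix, a separate label, served as a block for NAC after MI only. Each member had at least 119 reads in each library.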
